A study of Mus musculus with 8 samples.

Results

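The glutathione, peroxiredoxin and other antioxidant genes of the array were followed in myoblasts in which the long non-coding RNA Pvt1 had been silenced. The members were taken by gene symbol alone: the soluble glutathione S-transferases of the alpha, kappa, mu, omega, pi, theta and zeta classes, the microsomal transferases, the peroxiredoxins, glutathione peroxidases, thioredoxins, thioredoxin reductases and superoxide dismutases, and Cat, Gclc, Gclm, Gsr, Gss, Nqo1, Hmox1, Srxn1, Nfe2l2 and Keap1. This gave 55 of the 37074 gene names on the array, carried by 86 probes, and 51 of the 55 had a probe bright enough to test. The other 4, Gpx5, Gpx6, Gpx7 and Gstt4, lacked enough measured spots. RNA came from proliferating C2C12 cells, an established mouse myoblast line, at passage 10. In the Pvt1 silenced group, 4 biological replicates had received LNA GapmeRs named Pvt1_1 and Pvt1_3, antisense molecules through which RNase H cuts a paired transcript. In the negative control group, 4 biological replicates had received control GapmeRs, and both groups shared the transfection reagent, Lipofectamine 2000. Each culture gave 1 one-colour array labelled with Cy3, and precision is limited by having 4 arrays a group.

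Glutathione is the main small thiol of the cell. Glutamate-cysteine ligase and glutathione synthetase make it, the S-transferases couple it to reactive and foreign compounds, and the glutathione peroxidases spend it to remove peroxides. Peroxiredoxins form a parallel system that is recharged by thioredoxin and its NADPH-dependent reductases. Many of these genes are induced by NRF2, the product of Nfe2l2, which binds antioxidant response elements in promoters and which KEAP1 otherwise delivers to degradation. Proliferating myoblasts rely on these systems to buffer the peroxides made by their mitochondria.

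Signals below are log2 of the quantile-normalised processed intensity, and a change is the mean of the silenced arrays minus that of the control arrays. A gene was called higher or lower where limma's p, adjusted by Benjamini-Hochberg over 28649 probes, was under 0.05, and its brightest tested probe stood for it. A probe is said to be at background on an array where the scanner did not flag it as well above background. Pvt1 itself went from 9.86 ± 0.30 (SD, n = 4) to 7.004 ± 0.63 (SD, n = 4) on silencing, which left 13.8% of its control level (change -2.86, SE 0.32, adjusted p = 0.000682; exact two-sided permutation p = 0.0286, the smallest this design allows). All 8 arrays lay on 1 slide read in 1 scan. Between 58.8% and 62.5% of spots were positive and significant on the arrays of controls 1 to 4 and silenced cultures 1 to 3, against 51.6% on silenced 4, the dimmest array. Control 3 correlated least with its own group (mean r = 0.964, against 0.978 to 0.983 for the other arrays). Of 8 myoblast markers, 7 were well above background on every array and Myf5 on none, and Myod1, Des and Cdh15 were lower in the silenced cultures. Of 5 differentiated muscle markers tested, Acta1 (-1.88 (SE 0.25, limma adjusted p = 0.00128)) and Myh1 were lower and 3 not called. Myh1 was above background on 2 control arrays and 0 silenced arrays, and at least 1.03-fold lower (limma adjusted p = 0.00452). The summed linear signal of 6 such markers was 2992 to 3985 in controls and 1321 to 1792 in silenced cultures. In such bulk samples, fewer cells of a type and less RNA per cell cannot be told apart.

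Several genes of the list had probes whose calls differed, and the probe sequences of 4 of them are shown for that reason. In Gss and Gstm1 the probes were called in opposite directions, and in Sod1 and Nfe2l2 only the dimmer probe was called. Each line gives 30 bases of a 60-base probe, 5′ to 3′, with a polyadenylation signal (AATAAA or ATTAAA) in capitals where the probe holds one, and positions are on mm9, the build of the array files.
Gss, chr2:155388927-155388986, change 1.12: ccccagctctgccctaAATAAAataacaat
Gss, chr2:155390637-155392549, change -1.11: ggaaatggtacaagctctggagcagctgaa
Gstm1, chr5:117082490-117082549, change 0.89: tgtctcatctacAATAAAgtctgaaacaca
Gstm1, chr3:107815595-107815654, change -1.40: cactggagtaacaagtaggcccttgctaca
Sod1, chr16:90226497-90226556, change 0.31: cagactcatctgctaccctcaaaccattaa
Sod1, chr16:90224181-90224240, change -1.03: ggactttaactttagaagtgccATTAAAga
Nfe2l2, chr2:75513771-75513830, change 0.03: agagtttctgtttaagtgtaaatactacag
Nfe2l2, chr2:75529291-75529350, change 1.61: actgttaacatgttaaaatgctattggacc
In Gss and Gstm1 the probe that holds the signal was the one that was higher. In Sod1 the upstream probe held it and was lower, and neither Nfe2l2 probe did. Whether these probes lie in coding or untranslated exons was not analysed here. Distances between probes of a gene, here and below, are differences of genome positions with any introns included, not lengths along the transcript.

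Over the whole list, 10 of the 51 genes tested were higher in the Pvt1 silenced cultures (19.6%, against 5.99% of the 19360 genes tested on the array) and 6 were lower (11.8%, against 14% of all genes). The median change was 0.27, and that of all genes was -0.09. The list did not move as one: its changes ran from -1.24 for Gclm, a subunit of the enzyme that limits glutathione synthesis, to 2.56 for Gsta3, an alpha-class transferase. The transferases held 8 of the 10 higher genes, with 8 higher, 2 lower and 12 not called among 22 tested, whereas the other 29 genes had 2 higher and 4 lower. These counts take Gss and Gstm1 as higher from their brightest probes, although another probe of each was called lower. Leaving both out, a choice made after seeing the data, gave 8 higher (16.3%) and 6 lower of 49, and 7 higher and 2 lower of 21 transferases. Turning both to the other probe gave 8 higher (15.7%) and 8 lower (15.7%) of 51, and 7 higher and 3 lower of 22 transferases. Groups did not overlap for 26 of 51 genes (51.0%, against 26.2% of all genes with 8 values). Among the 35 genes not called, 22 had a change of less than 0.5 in size.

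**Figure D1:**
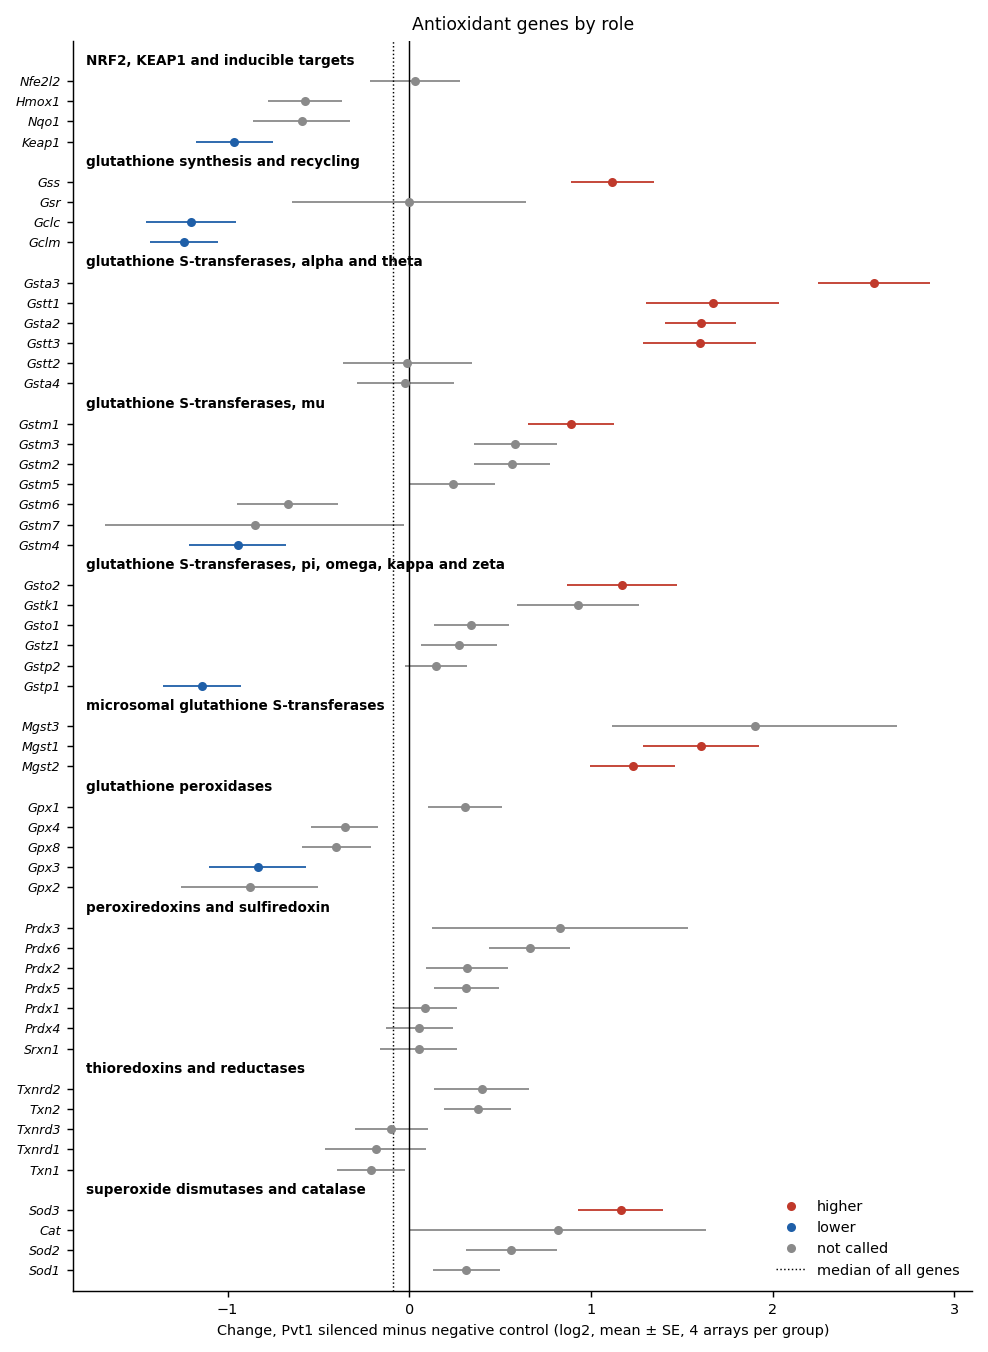
Change of each of the 51 tested genes on the log2 scale (points, with SE as bars, 4 arrays per group), grouped by role and coloured by the limma call. The dotted line marks the median of all genes, -0.09. The 10 higher genes lie mostly among the alpha, theta and microsomal transferases, and the wide bars of Mgst3, Prdx3, Gsr and Cat come with 1 low control array. Gstt2 was at background on every array, and Gpx2 and Gstm7 on all silenced arrays.

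The count of higher genes moved with the scaling and with the dimmest array. Quantile normalisation with dim spots masked gave 10 higher and 6 lower. A shift to the 75th percentile gave 28 and 4, beside 29.8% higher and 10.7% lower of all genes, and it raised the median of all probes by 0.36. Cyclic loess gave 20 and 5, beside 22.1% and 14.3% of all genes, and raised that median by 0.22. The deposited series table gave 20 and 6, beside 21.2% and 12.2% of all genes, and no masking of dim spots 20 and 5, beside 19.7% and 11%, each with a median 0.20 higher. Without silenced 4 there were 16 higher and 5 lower, beside 15.3% and 13.9% of all genes. That array was the lowest silenced one for all 10 higher genes. The methods' t-test with Benjamini-Hochberg adjustment left 7 and 3, beside 2.58% and 7.73% of all genes, and the slide row as a block 8 and 3, beside 2.41% and 5.97%. Called in each of the 8 fits that left out 1 array were 12 of the 16 genes, and Gpx3, Gstm1, Gstm4 and Gsto2 lost their call in at least 5 of them.

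**Figure D2:**
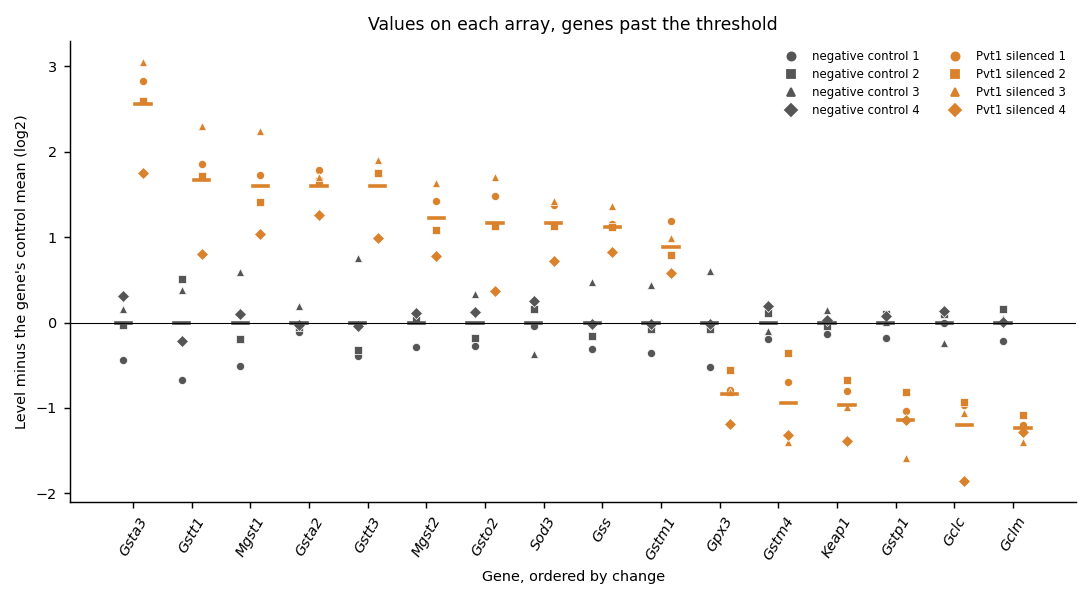
Values of the 16 called genes on each of the 8 arrays, as log2 signal minus the mean of the 4 controls (grey, negative control; orange, Pvt1 silenced; symbols, replicate number; bars, group means). In every gene shown all silenced arrays lie on one side of all control arrays, and silenced 4 is the lowest silenced array for each of the 10 genes that were higher.

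Glutathione synthesis was examined first. Both subunits of glutamate-cysteine ligase were lower in the silenced cultures, while the probe standing for glutathione synthetase was higher. Gclc, the catalytic subunit (chr9:77641296-77641355), read 12.15, 12.26, 11.91 and 12.29 on control arrays 1 to 4 and 11.19, 11.22, 11.09 and 10.30 on silenced arrays 1 to 4. The controls lay together and the silenced arrays were all below them, with silenced 4 lowest, a change of -1.20 (SE 0.25, limma adjusted p = 0.00832) or a 2.30-fold lower level. Gclm, the modifier subunit (chr3:121967737-121967796), read 13.16, 13.54, 13.43 and 13.39 in the controls and 12.19, 12.30, 11.98 and 12.10 in the silenced cultures. Its groups were separated by 0.86 with a spread of at most 0.38 within a group, and the change was -1.24 (SE 0.19, limma adjusted p = 0.0021), 2.36-fold lower. Gclm kept its call under all alternatives run, and Gclc under all but the methods' t-test (adjusted p = 0.0556).

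Glutathione synthetase, which adds glycine to complete the molecule, had a pair of tested probes that disagreed. The brightest Gss probe read 11.87, 12.02, 12.65 and 12.16 on control arrays 1 to 4 and 13.33, 13.29, 13.55 and 13.003 on silenced arrays 1 to 4, and all silenced values exceeded all control values (change 1.12 (SE 0.23, limma adjusted p = 0.00828)). The probe 3563 bases further 5′ read 10.29, 10.53, 11.52 and 10.52 in the controls and 9.83, 9.93, 9.33 and 9.32 in the silenced cultures. On that probe every silenced value was below every control value, a change of -1.11 (SE 0.30, limma adjusted p = 0.0259), and control 3 was the highest array. The direction of Gss thus depended on the probe, and no direction is given for the gene. The brightest probe kept its call in each fit that left out 1 array. The 5′ probe lost its call in 9 alternatives, 3 of which left out 1 array (control 2, control 4 or silenced 3), with adjusted p up to 0.121. Gsr, the reductase that restores oxidised glutathione, was not called (change 0.00 (SE 0.64, limma adjusted p = 0.999)). It read 13.68, 13.99, 10.75 and 13.97 on control arrays 1 to 4 and 13.02, 13.32, 13.09 and 12.95 on silenced arrays 1 to 4. Control 3 stood 3.14 below the mean of the other controls, and without it the Gsr change was -0.79 (SE 0.20, adjusted p = 0.0221), past the threshold.

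Of the NRF2 and KEAP1 pair and the enzymes NRF2 is best known to induce, 1 of 4 genes was called, and it was lower, beside 14% lower of all genes. Keap1, the adaptor that directs NRF2 to the CUL3 ubiquitin ligase (chr9:21035292-21035732), read 11.81, 11.90, 12.09 and 11.97 on control arrays 1 to 4 and 11.14, 11.27, 10.95 and 10.55 on silenced arrays 1 to 4. No value of one group reached the other, and the change was -0.96 (SE 0.21, limma adjusted p = 0.011), 1.95-fold lower. With the slide row as a block its adjusted p was 0.0654. Nfe2l2 (chr2:75513771-75513830) read 12.89, 13.06, 13.54 and 12.95 in the controls and 13.13, 12.93, 13.65 and 12.86 in the silenced cultures. The groups overlapped throughout, with a change of 0.03 (SE 0.25, limma adjusted p = 0.942). A second Nfe2l2 probe, 15520 bases further 5′, was at background on all 4 controls and above it on 3 silenced arrays. It was at least 1.92-fold higher after silencing (measured means 5.39 and 6.99, limma adjusted p = 0.00523). That call was lost under the methods' t-test (adjusted p = 0.0569).

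Hmox1, Nqo1 and Srxn1, further targets of NRF2 beside the ligase subunits, did not pass the test. Hmox1, which breaks down haem, read 12.68, 12.71, 13.09 and 12.77 on control arrays 1 to 4 and 12.37, 12.32, 12.37 and 11.90 on silenced arrays 1 to 4. Its groups did not overlap, but the change of -0.58 (SE 0.20, adjusted p = 0.0682) missed the threshold. It was called lower under 6 alternatives (cyclic loess, normexp, the series table, no mask, only spots well above background and the robust prior), with changes from -0.41 to -0.63 and adjusted p from 0.0168 to 0.0392. Nqo1, a quinone reductase, read 12.19, 12.33, 11.30 and 12.34 in the controls and 11.49, 11.72, 11.31 and 11.28 in the silenced cultures. Control 3 was level with the silenced arrays while the other controls were above all of them (change -0.59 (SE 0.27, limma adjusted p = 0.142)). Without control 3 the Nqo1 change was -0.84 (SE 0.20, adjusted p = 0.0171). Srxn1, sulfiredoxin, which repairs overoxidised peroxiredoxins, read 14.11, 14.33, 14.50 and 14.32 on control arrays 1 to 4 and 14.33, 14.29, 14.78 and 14.07 on silenced arrays 1 to 4, and the groups overlapped (change 0.05 (SE 0.21, limma adjusted p = 0.895)).

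Antioxidant response elements were searched in the 300 bases around transcript starts (250 before to 50 after) as TGACNNNGC on both strands, in RefSeq promoters on GRCm38.p6. The search is a description of letters only. Promoters were at hand for 48 of the 55 genes, in 62 windows, and 10 windows (16.1%) held a match, against 12.4% of all 32851 windows. The 10 genes were Gclm (lower), Gsta3 and Mgst1 (higher) and Gstm5, Gstm7, Nfe2l2, Prdx1, Sod1, Srxn1 and Txnrd1 (not called). Windows of 30 bases are shown for the 3 called genes, with the match in capitals. A match on the opposite strand reads as GCNNNGTCA.
Gclm, chr3:122245413-122245442, opposite strand, first base 134 before the start: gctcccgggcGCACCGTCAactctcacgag
Mgst1, chr6:138140461-138140490, opposite strand, first base 56 before the start: gcggggcttgGCACGGTCAggaggcggggt
Gsta3, chr1:21240454-21240483, gene strand, first base 121 before the start: aactcaggcaTGACATTGCatttttcttct
Matches thus stood in promoters of genes that were higher, lower and not called.

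Of 6 alpha and theta transferases tested, 4 were higher and 0 lower, beside 5.99% and 14% of all genes, with a median change of 1.60, and the methods' t-test kept 3 of the 4. Gsta3 (chr1:21255043-21255102), an alpha-class enzyme known for detoxifying aflatoxin epoxide in mouse liver, read 5.62, 6.03, 6.23 and 6.37 on control arrays 1 to 4 and 8.89, 8.66, 9.12 and 7.81 on silenced arrays 1 to 4. Only 2 of the 4 control arrays were well above background, whereas all silenced arrays were. The change was 2.56 (SE 0.31, limma adjusted p = 0.000874), 5.89-fold higher on the measured means. A second Gsta3 probe, 146 bases further 3′, was well above background on all 4 silenced arrays and on 0 control arrays. It was at least 8.65-fold higher and had too few control values to be tested (means 4.57 over 2 controls and 9.17 over 4 silenced arrays). Another probe, 8709 bases 5′, was at background on every array.

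Gsta2 (chr9:78178856-78178915), another alpha enzyme, stood far above background in both groups. It read 12.72, 12.79, 13.03 and 12.81 in the controls and 14.62, 14.49, 14.55 and 14.10 in the silenced cultures. The controls varied by 0.30 and the silenced arrays by 0.52, and the gap between groups was 1.07 (change 1.60 (SE 0.20, limma adjusted p = 0.000932), 3.04-fold higher). Gsta4, the alpha enzyme that conjugates lipid aldehydes such as hydroxynonenal, did not pass the test (-0.02 (SE 0.27, adjusted p = 0.965)).

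Theta transferases act on small halogenated compounds. Gstt1 (chr10:75246560-75246619) read 5.81, 6.995, 6.86 and 6.27 on control arrays 1 to 4 and 8.34, 8.20, 8.78 and 7.28 on silenced arrays 1 to 4. It was well above background on 3 control arrays and all silenced ones, and silenced 4 stood just above the highest control (change 1.67 (SE 0.37, limma adjusted p = 0.0109), 3.18-fold higher). Gstt3 (chr10:75236966-75237025) read 7.21, 7.28, 8.36 and 7.56 in the controls and 9.35, 9.36, 9.51 and 8.59 in the silenced cultures. Silenced 4 was again the lowest silenced array and control 3 the highest control, separated by 0.23 (change 1.60 (SE 0.31, limma adjusted p = 0.00648), 3.03-fold higher). Gstt2 was at background on every array.

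All 3 microsomal transferases, membrane proteins that also reduce lipid hydroperoxides or take part in leukotriene synthesis, lay wholly above their controls in the silenced cultures, beside 26.2% of all genes with groups that did not overlap, and 2 passed the test, beside 5.99% higher of all genes. Mgst1 (chr6:138105021-138105080) read 8.35, 8.66, 9.45 and 8.96 on control arrays 1 to 4 and 10.58, 10.27, 11.10 and 9.89 on silenced arrays 1 to 4 (change 1.60 (SE 0.32, limma adjusted p = 0.00711), 3.04-fold higher). A second Mgst1 probe, 175 bases 5′, gave nearly the same change, 1.55 (SE 0.26, adjusted p = 0.00443), over 7 arrays. Mgst2 (chr3:51486449-51486508) read 10.42, 10.76, 10.83 and 10.82 in the controls and 12.13, 11.80, 12.34 and 11.49 in the silenced cultures (change 1.23 (SE 0.23, limma adjusted p = 0.00596), 2.35-fold higher). Both genes kept their call in each fit that left out 1 array. Mgst3 (chr1:169303928-169303987) read 11.57, 11.998, 7.97 and 11.93 on control arrays 1 to 4 and 12.78, 12.92, 12.86 and 12.52 on silenced arrays 1 to 4. Control 3 was 3.87 below the other controls, and the change of 1.90 (SE 0.78, limma adjusted p = 0.11) missed the threshold. Without control 3 it was 0.93 (SE 0.21, adjusted p = 0.0133), a smaller estimate that was called. A second Mgst3 probe 1688 bases 3′, well above background on 2 silenced arrays and no control array, was called higher (limma adjusted p = 0.0184). Its bound came to less than 1-fold, so no size is given, and the call was lost without silenced 3, under the methods' t-test and under the slide row block.

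The mu transferases, a gene cluster on chromosome 3, were mixed. Of 7 tested, 1 was higher, 1 lower and 5 not called, beside 5.99% higher and 14% lower of all genes. The 75th percentile shift, cyclic loess, the series table and no mask each called 3 higher and 0 lower, beside 19.7% to 29.8% higher of all genes. No call held under the methods' t-test, while 5 had an unadjusted p under 0.05. Gstm1 was represented by a probe that the files place on chromosome 5 (chr5:117082490-117082549), unlike every other mu probe. It read 11.50, 11.78, 12.30 and 11.83 on control arrays 1 to 4 and 13.04, 12.65, 12.84 and 12.44 on silenced arrays 1 to 4, with no overlap (change 0.89 (SE 0.23, limma adjusted p = 0.0233)). The Gstm1 probe on chromosome 3 read 12.34, 12.54, 12.87 and 12.50 in the controls and 11.24, 11.75, 10.92 and 10.74 in the silenced cultures. There each silenced value was below each control value (change -1.40 (SE 0.26, limma adjusted p = 0.00487)), so no direction is given for Gstm1. The call of the chromosome 5 probe ended without control 1, 2 or 4 or silenced 1 or 3, with adjusted p up to 0.0737.

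Gstm4 (chr3:107846495-107846847) read 8.74, 9.04, 8.83 and 9.12 on control arrays 1 to 4 and 8.24, 8.58, 7.53 and 7.62 on silenced arrays 1 to 4. Silenced 2 came within 0.16 of the lowest control and silenced 3 and 4 were far lower (change -0.94 (SE 0.27, limma adjusted p = 0.0308), 1.92-fold lower). Under the shift to the 75th percentile, cyclic loess, the series table and no mask, its change was between -0.60 and -0.67 and not called. It also lost its call without control 1, 2 or 4 or silenced 1 or 3 (adjusted p up to 0.0953). Gstm2, at 0.56 (SE 0.21, adjusted p = 0.0791), and Gstm3, at 0.58 (SE 0.23, adjusted p = 0.0971), missed the threshold, and both passed it without control 3 and without silenced 4. Gstm5 and Gstm6 had changes of 0.24 and -0.67 and were not called. A second Gstm6 probe, 4374 bases 3′ and above background on 2 silenced arrays only, was called and at least 1.08-fold higher (adjusted p = 0.0433). That call was lost in 12 alternatives, 6 of which left out 1 array (control 2, 3 or 4 or silenced 1, 2 or 3), with adjusted p up to 0.595.

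In the pi class, the probe for Gstp1 (chr19:4037306-4037365), a transferase abundant in many dividing cells, read 14.10, 14.38, 14.29 and 14.36 on control arrays 1 to 4 and 13.25, 13.47, 12.70 and 13.14 on silenced arrays 1 to 4. Every silenced array was at least 0.63 below the lowest control, and the change was -1.14 (SE 0.22, limma adjusted p = 0.00562), 2.21-fold lower. Its transcript accession list in the files names both Gstp1 and Gstp2, so the copies could not be told apart by it. The separate Gstp2 probe was not called (0.15 (SE 0.17, adjusted p = 0.579)) and was higher on every silenced array, 15.84 to 15.93 against 15.63 to 15.82. Gsto2 (chr19:47960702-47960761), an omega transferase that reduces dehydroascorbate, read 8.03, 8.12, 8.63 and 8.42 in the controls and 9.77, 9.43, 10.01 and 8.67 in the silenced cultures. Silenced 4 was 0.03 above the highest control and the other silenced arrays were well clear of it (change 1.17 (SE 0.30, limma adjusted p = 0.022), 2.25-fold higher). Its call ended without control 1, 2 or 4 or silenced 1 or 3 (adjusted p up to 0.0683), under the methods' t-test (adjusted p = 0.0933) and under the slide row block. Gsto1, Gstk1 of mitochondria and peroxisomes, and Gstz1 of tyrosine breakdown were not called, with changes of 0.34, 0.93 and 0.27. Gstk1 passed the test without control 3 (1.10, adjusted p = 0.0443) and without silenced 4 (1.25, adjusted p = 0.00625). The 75th percentile shift, cyclic loess, the series table and no mask each called both Gstk1 (1.24 to 1.29) and Gsto1 (0.52 to 0.93) higher, and Gsto1 also passed without silenced 4 (0.49, adjusted p = 0.0398).

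Of 5 glutathione peroxidases tested, 1 was lower and 0 were higher, beside 14% lower and 5.99% higher of all genes, so the count of lower genes was near that of the array. Gpx3, the secreted plasma enzyme (chr11:54723436-54723495), read 8.03, 8.48, 9.16 and 8.54 on control arrays 1 to 4 and 7.76, 7.998, 7.74 and 7.36 on silenced arrays 1 to 4. Silenced 2 lay 0.03 below the lowest control (change -0.83 (SE 0.27, limma adjusted p = 0.0486), 1.78-fold lower). The call was lost in 7 of the 8 fits that left out 1 array, all but the one without control 1, with adjusted p up to 0.114, and under the 4 scalings that moved the median its change was between -0.49 and -0.57 and not called. Gpx1, the main cytosolic selenoenzyme, read 14.21, 14.42, 14.89 and 14.54 in the controls and 14.95, 14.85, 14.70 and 14.79 in the silenced cultures, with overlap (change 0.31 (SE 0.20, limma adjusted p = 0.315)). The 75th percentile shift (0.89, adjusted p = 0.00955) and cyclic loess (0.49, adjusted p = 0.0488) called Gpx1 higher, beside 29.8% and 22.1% of all genes. Gpx4, which reduces lipid hydroperoxides in membranes, read 15.77, 15.73, 16.13 and 15.92 on control arrays 1 to 4 and 15.60, 15.56, 15.57 and 15.40 on silenced arrays 1 to 4. All its silenced values were below the controls, by a change of -0.35 (SE 0.18, adjusted p = 0.197) that missed the threshold. The series table (-0.31, adjusted p = 0.0466) and the robust prior (-0.35, adjusted p = 0.0325) called Gpx4 lower, beside 12.2% and 15.7% of all genes. Gpx8 of the endoplasmic reticulum was likewise lower on every silenced array and not called, at 13.65, 14.04, 13.75 and 14.07 in the controls and 13.50, 13.57, 13.53 and 13.30 in the silenced cultures (change -0.40 (SE 0.19, limma adjusted p = 0.16)). Gpx2 was at background on all silenced arrays and was not called.

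None of the 6 peroxiredoxins nor Srxn1 was called by limma, 1 of the 7 had an unadjusted p under 0.05, and the methods' t-test called 0, where limma called 5.99% of all genes higher and 14% lower. Prdx1, the abundant cytosolic enzyme, read 15.84, 15.90, 15.56 and 15.70 on control arrays 1 to 4 and 15.81, 15.88, 15.86 and 15.78 on silenced arrays 1 to 4. The groups overlapped (change 0.09 (SE 0.18, limma adjusted p = 0.77)). Prdx2 read 14.09, 14.18, 14.46 and 14.32 in the controls and 14.76, 14.55, 14.90 and 14.11 in the silenced cultures (change 0.32 (SE 0.22, limma adjusted p = 0.343)). Prdx4 of the secretory pathway read 13.31, 13.62, 13.32 and 13.56 on control arrays 1 to 4 and 13.53, 13.55, 13.61 and 13.34 on silenced arrays 1 to 4 (change 0.06 (SE 0.18, limma adjusted p = 0.859)). These 3 probes showed overlapping groups, and their SE of 0.18 to 0.22 shows that small changes were not detectable with 4 arrays per group. A second Prdx4 probe, 7027 bases 5′ and above background on 1 silenced array only, was not called (-0.87 (SE 0.43, adjusted p = 0.184)). It lacked a value on silenced 1, and without silenced 4 it was called lower (-1.48, adjusted p = 0.00278).

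The brightest probes of Prdx5 and Prdx6 were higher on every silenced array without passing the test, while a second probe of each had a negative change. Prdx5, of mitochondria, peroxisomes and cytosol, read 14.66, 14.71, 14.92 and 14.85 in the controls and 15.03, 15.21, 15.19 and 14.95 in the silenced cultures (change 0.31 (SE 0.18, limma adjusted p = 0.24)). Its second probe, 174 bases 5′, was lower on every silenced array at -0.70 (SE 0.28, adjusted p = 0.0991), and was called lower with a robust prior (adjusted p = 0.031) and with only spots well above background (adjusted p = 0.0496). Prdx6, which uses glutathione in place of thioredoxin, read 14.28, 14.38, 14.58 and 14.47 on control arrays 1 to 4 and 15.17, 15.04, 15.51 and 14.65 on silenced arrays 1 to 4 (change 0.66 (SE 0.22, limma adjusted p = 0.0581)). The second Prdx6 probe, 2577 bases 5′, had a change of -0.49 (SE 0.23, adjusted p = 0.164) and was not called. Without silenced 4 the change of the brightest Prdx6 probe was 0.81 and called (adjusted p = 0.0119). That probe was also called higher with normexp (0.65, adjusted p = 0.0312), only spots well above background (0.61, adjusted p = 0.0445) and the robust prior (0.66, adjusted p = 0.00285). Prdx3, the mitochondrial enzyme, read 12.91, 13.07, 9.53 and 13.08 in the controls and 13.08, 13.06, 12.92 and 12.87 in the silenced cultures. Control 3 was 3.49 below the other controls, and leaving it out took the change from 0.83 (SE 0.71, adjusted p = 0.437) to -0.04 (SE 0.19, adjusted p = 0.897). The absence of calls in this group depended on the processing. Cyclic loess, the series table and no mask each called 3 of 7 higher, beside 19.7% to 22.1% of all genes, and the shift to the 75th percentile 6 of 7, beside 29.8%. Normexp, only spots well above background and the robust prior each called 1 of 7, beside 7.02% to 8.19%.

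Thioredoxins and their reductases were not called either, 0 of 5 by limma, 0 by the methods' t-test and 0 at an unadjusted p under 0.05, where limma called 5.99% of all genes higher and 14% lower. Of the 5, the 75th percentile shift called 2 higher, beside 29.8% of all genes. Cyclic loess, the series table, no mask and the robust prior called 1 each, beside 22.1%, 21.2%, 19.7% and 8.19% of all genes. Txn1, cytosolic thioredoxin, read 15.28, 15.47, 15.23 and 15.25 on control arrays 1 to 4 and 15.21, 15.16, 15.19 and 14.82 on silenced arrays 1 to 4. Its silenced values all lay below the controls, by a change of -0.21 (SE 0.19, limma adjusted p = 0.456). Txn2, the mitochondrial form, read 14.68, 14.82, 14.88 and 14.95 in the controls and 15.22, 15.31, 15.33 and 14.98 in the silenced cultures. Its silenced values all lay above the controls (change 0.38 (SE 0.18, limma adjusted p = 0.17)), and it was called higher under those 5 alternatives (changes from 0.38 to 0.96, adjusted p from 0.000607 to 0.0373). Further Txn2 probes, 191 and 11572 bases 5′, had changes of -0.26 and -0.70 and were not called. The reductases, selenoproteins that pass electrons from NADPH to thioredoxin, overlapped between groups. Txnrd1 read 14.69, 14.99, 13.80 and 14.88 on control arrays 1 to 4 and 14.41, 14.54, 14.52 and 14.15 on silenced arrays 1 to 4 (change -0.19 (SE 0.28, limma adjusted p = 0.679)). Txnrd2, the mitochondrial reductase, read 11.05, 11.13, 11.86 and 11.17 in the controls and 11.84, 11.54, 12.12 and 11.32 in the silenced cultures (change 0.40 (SE 0.26, limma adjusted p = 0.306)). A Txnrd2 probe 22985 bases further 5′ was lower (-1.53 (SE 0.28, adjusted p = 0.00479)), while another, 22604 bases 5′, was at background on every array. The probe 41289 bases 5′ had a change of 0.86 (SE 0.31, adjusted p = 0.0728) and was not called, but was called higher under 6 alternatives, with changes up to 1.18. Txnrd3 had a change of -0.10.

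Among the superoxide dismutases and catalase, 1 of 4 was called, and it was higher, beside 5.99% of all genes. Cyclic loess called 2 of 4 higher, beside 22.1% of all genes. The 75th percentile shift, the series table and no mask called 3 of 4, beside 29.8%, 21.2% and 19.7% of all genes. Sod2 was added in all 4 of these scalings (adjusted p from 0.00114 to 0.00273) and Sod1 in all but cyclic loess (adjusted p from 0.00509 to 0.0435). Sod3, the extracellular superoxide dismutase (chr5:52760685-52760744), read 9.98, 10.19, 9.66 and 10.28 on control arrays 1 to 4 and 11.40, 11.16, 11.45 and 10.75 on silenced arrays 1 to 4. The groups were 0.47 apart, and the change was 1.16 (SE 0.23, limma adjusted p = 0.00755), 2.24-fold higher. Sod1, the cytosolic copper-zinc enzyme, read 15.60, 15.56, 15.81 and 15.62 in the controls and 15.99, 15.82, 16.17 and 15.86 in the silenced cultures. Its silenced values all exceeded the controls but the change of 0.31 (SE 0.18, limma adjusted p = 0.249) was not called. The Sod1 probe 2316 bases further 5′ read 7.78, 8.18, 8.04 and 8.36 on control arrays 1 to 4 and 7.26, 7.07, 7.51 and 6.39 on silenced arrays 1 to 4 and was lower (-1.03 (SE 0.27, adjusted p = 0.0225)). Its call was lost in 5 alternatives, among them the fits without control 2 and without control 4 (adjusted p up to 0.0804). Sod2, the mitochondrial manganese enzyme, read 8.78, 9.13, 8.94 and 9.18 in the controls and 9.56, 9.92, 9.85 and 8.96 in the silenced cultures (change 0.56 (SE 0.25, limma adjusted p = 0.135)). Silenced 4 fell among the controls, and without it the Sod2 change was 0.77 and called (adjusted p = 0.0148).

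Catalase, the peroxisomal enzyme that splits hydrogen peroxide, showed the largest deviation of a single array. Cat read 11.54, 11.86, 7.55 and 11.31 on control arrays 1 to 4 and 11.43, 11.71, 11.19 and 11.19 on silenced arrays 1 to 4. Control 3 was 4.02 below the mean of the other controls, which themselves overlapped the silenced arrays. With it the change was 0.82 (SE 0.82, limma adjusted p = 0.515), and without it -0.19 (SE 0.23, adjusted p = 0.597), so the direction of the Cat estimate rested on that array. The 6 genes with control 3 furthest below the other controls were Cat, Mgst3, Prdx3, Gsr, Txnrd1 and Nqo1, by 0.99 to 4.02. Over the whole list, leaving out control 3 gave 14 higher and 7 lower genes, beside 7.37% and 14.8% of all genes.

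**Figure D3:**
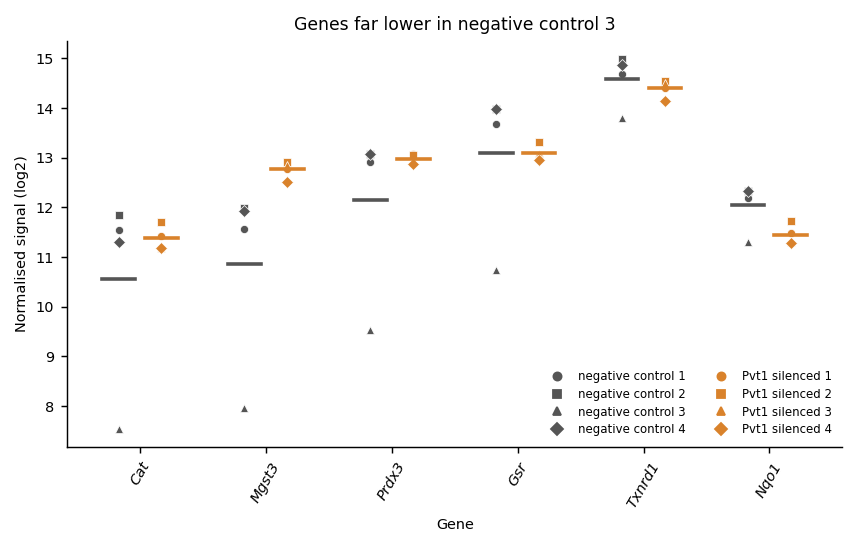
Log2 normalised signal on each array for the 6 genes, picked after their values were seen, whose value in negative control 3 (grey triangle) was furthest below the other controls; bars are means of 4 arrays. For Cat, Mgst3, Prdx3 and Gsr that array lies 3.14 to 4.02 below the mean of the other controls, which stay within 0.55 of one another.

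Probes of one gene did not always agree, and in most genes compared the more 5′ probe had the lower change. No share over all genes of the array was computed for this comparison. Of 17 genes with tested probes at different positions on the same strand, the most 5′ probe had the lower change in 13 (76.5%), with a median gap of -0.60 between the 5′ and 3′ changes. The calls of the 5′ and 3′ probes differed in 5 genes: Gss, Gstm6, Mgst3, Nfe2l2 and Sod1. The largest gap was that of Gss, -2.23, over 3563 bases. The gap was the other way in Mgst3, Nfe2l2, Txnrd1 and Txnrd2. For Txnrd2 it compared the outermost probes, and a probe between them, 22985 bases 5′ of the brightest, was called lower (-1.53). The Mgst3 gap includes control 3, without which the change of the brightest probe was 0.93 in place of 1.90. Prdx5 had a gap of -1.02 over only 174 bases, and Prdx6 one of -1.15 over 2577.

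**Figure D4:**
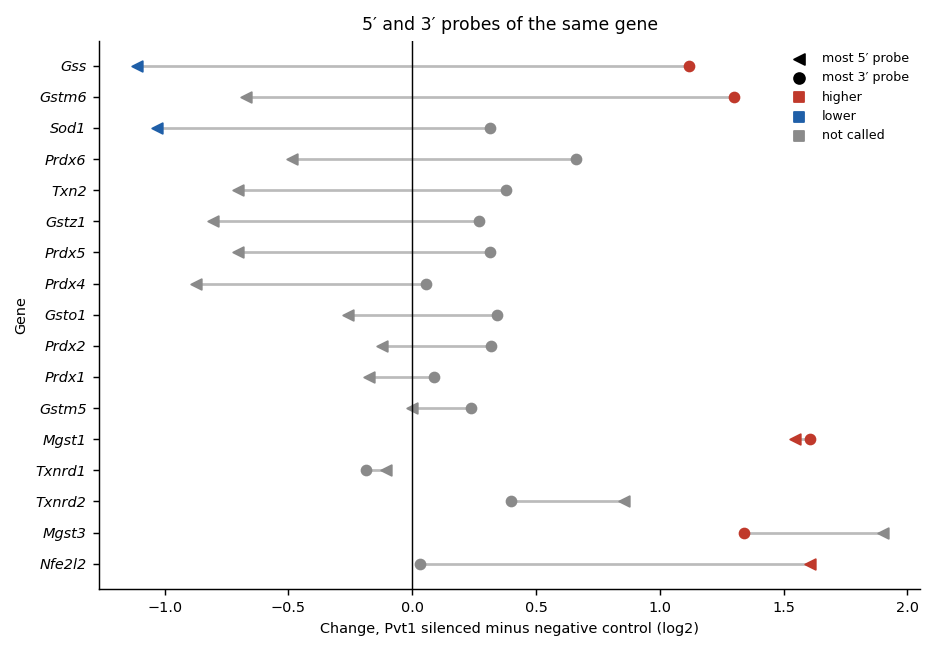
Change of the most 5′ tested probe (triangle) and the most 3′ tested probe (circle) for each of the 17 genes, on the log2 scale, coloured by the limma call and ordered by the gap. Triangles lie to the left of circles in 13 of 17 genes.

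Genes read by a probe that holds a polyadenylation signal were called higher more often on the whole array. Where such probes lie relative to the transcript end was not analysed here, and some lie well 5′ of the brightest probe, such as that of Sod1. Of all genes represented by such a probe 11.7% were higher and 5.64% lower, against 4.8% and 15.8% of the rest. Among the antioxidant genes, 13 had such a probe, with 4 higher (Gss, Gstm1, Gstt1 and Sod3), 0 lower and a median change of 0.56. The other 38 had 6 higher and 6 lower with a median of 0.02. Both ligase subunits, Keap1 and Gstp1 were read by probes without the signal, as were Gsta2, Gsta3, Mgst1 and Mgst2. Taking the probe nearest the 3′ end for each gene gave 12 higher and 6 lower, with no share over all genes computed for that choice. The mean of all probes gave 8 and 5, beside 820 higher and 2765 lower of all 19360 genes. The part of probe position in these results was not tested.

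Part of a list of liver cell markers moved with the transferases. Of 30 genes made mainly by hepatocytes, 14 were well above background on at least 1 silenced array and no control array, 8 of them on all 4. The summed linear signal of the 29 with a value on every array was 1439 to 2244 in controls and 7003 to 8958 in silenced cultures. The largest bounds were those of Mup1 (at least 25.0-fold), Serpina1c (at least 14.8-fold) and Alb, serum albumin (at least 10.3-fold). At background on every array were 12 of the 30, among them Cyp2c29, Cyp3a11, Cyp1a2, Hpd and Cps1, enzymes that define the differentiated hepatocyte. Of the 9 that could be tested 5 were higher and 4 not called. The higher ones included the enzyme Cyp2e1 (1.14 (SE 0.37, adjusted p = 0.0493)), above background on 3 silenced arrays and 1 control array. Not called were Hp (1.335 (SE 0.63, adjusted p = 0.165)), above background on 3 silenced arrays and 0 control arrays, and Hpx (-0.86 (SE 0.36, adjusted p = 0.118)), above background on 2 control arrays and 0 silenced arrays. Also not called were Apoc3 (-0.82 (SE 0.38, adjusted p = 0.147)), at background on every array, and Apoa2 (-0.15 (SE 0.39, adjusted p = 0.821)), above background on all 8. Gsta3, Gsta2, Gstt1, Gstt3 and Mgst1 are also abundant in liver, and the liver markers' part in their rise was not tested. Of 5 macrophage markers the summed signal was 1752 to 1875 in controls and 3884 to 6752 in silenced cultures, with Cd68 higher (1.84 (SE 0.22, adjusted p = 0.000799)), Csf1r lower (-1.12 (SE 0.30, adjusted p = 0.0237)), Ptprc not called (1.26 (SE 0.42, adjusted p = 0.0588)), and Lyz2 and Adgre1 well above background on no array.

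**Figure D5:**
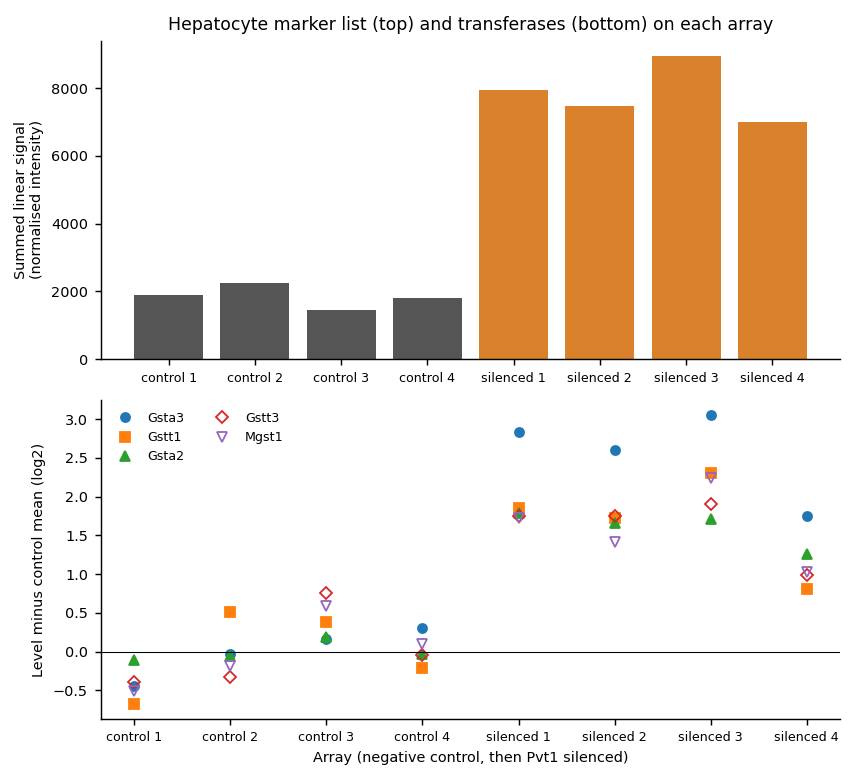
Top, summed linear normalised signal of 29 hepatocyte markers on each array (bars from 0; grey, negative control; orange, Pvt1 silenced): 1439 to 2244 in controls and 7003 to 8958 in silenced cultures. Bottom, log2 level of Gsta3, Gstt1, Gsta2, Gstt3 and Mgst1 on the same arrays, minus the control mean; all silenced values exceed all control values of the same gene.

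Genes around these pathways were counted from lists of related genes. Glutathione supply and use outside the members had 24 genes tested, 2 higher and 5 lower. Beside this and the counts that follow, 5.99% of all genes were higher and 14% lower. Lower were Slc3a2 (-1.55 (SE 0.21, adjusted p = 0.0013)), the heavy chain of the cystine importer, Gstcd (-1.19 (SE 0.31, adjusted p = 0.0223)) and Chac1 (-0.91 (SE 0.22, adjusted p = 0.0168)), which degrades glutathione, and also Glrx and Glrx5, 2 of 4 glutaredoxins tested. The other two, Glrx2 and Glrx3, were not called. Slc7a11, the light chain of the importer, had the largest positive change of the list, 1.28 (SE 0.42, adjusted p = 0.0542), and was not called. Higher were Hagh (1.25 (SE 0.26, adjusted p = 0.00856)), a glyoxalase that releases glutathione, and Alox5ap (0.79 (SE 0.25, adjusted p = 0.0459)). Genes for the supply of NADPH, which both reductase systems spend, had 1 higher and 5 lower of 18, again beside 5.99% and 14% of all genes. G6pd2, a copy of glucose-6-phosphate dehydrogenase, was at least 6.84-fold lower (adjusted p = 0.00075). Aldh1l2 (-1.92 (SE 0.21, adjusted p = 0.000601)) and Mthfd2 (-1.37 (SE 0.22, adjusted p = 0.00263)) of mitochondrial folate metabolism were lower as well. Pgd and G6pdx of the pentose phosphate pathway completed the lower genes, and Aldh1l1 (1.84 (SE 0.53, adjusted p = 0.0327)) was higher.

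NRF2 partners and further NRF2 target genes had 3 higher and 2 lower of 27, beside 5.99% and 14% of all genes. Blvrb (1.43 (SE 0.20, adjusted p = 0.00154)), biliverdin reductase B, Akr1b10 (1.43 (SE 0.27, adjusted p = 0.0057)), an aldo-keto reductase, and Aldh3a1 (1.35 (SE 0.20, adjusted p = 0.00206)), an aldehyde dehydrogenase, were higher. Mafk (-1.40 (SE 0.23, adjusted p = 0.00321)), a small MAF partner of NRF2, and Cul3 (-1.25 (SE 0.20, adjusted p = 0.00264)), the ligase scaffold that works with KEAP1, were lower. Of 34 thioredoxin-like and other redox genes, 6 were higher and 2 lower, beside the same shares. Sepp1 (2.003 (SE 0.35, adjusted p = 0.00405)), the selenium carrier of plasma, Txnip (1.51 (SE 0.19, adjusted p = 0.00112)), the inhibitor of thioredoxin, and Ccs (1.05 (SE 0.23, adjusted p = 0.0104)), the copper chaperone of SOD1, had the largest rises, and Msrb3 (-1.94 (SE 0.35, adjusted p = 0.00458)) and Pdia3 (-1.09 (SE 0.20, adjusted p = 0.00473)) were lower. Selenoprotein synthesis (9 tested) and the NADPH oxidases (9 tested) had 0 limma calls, with 1 and 2 genes at an unadjusted p under 0.05.

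The row of the slide was the only physical batch in the files. The upper row held controls 1 to 3 with silenced 1, and the lower row control 4 with silenced 2 to 4. Because the groups of all 16 called genes did not overlap, each necessarily changed in the same direction within both rows. This agreement was fixed in advance and says nothing on the part of the row. With the row as a block 11 of the 16 remained called, and Gpx3, Gstm1, Gstm4, Gsto2 and Keap1 did not (adjusted p from 0.061 to 0.154).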

How the data were processed

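Deposited scanner files of 8 arrays held spot intensity, background-subtracted and detrended by Feature Extraction (12.0.0.7 per the file headers, 10.7.3.1 in the submitters' processing notes), and 0 or 1 flags; the authors also deposited a quantile-normalised intensity table, used as an alternative. Following the study's methods, spots not positive and significant were set to missing, the deposited processed signal was quantile normalised and spots of a probe averaged; the log2 scale, taken before normalisation, was chosen here. Outlying spots were left out. Probes with 3 or more of 4 values in each group were fitted in limma 3.58.1 (R 4.3.3), group only, with Benjamini-Hochberg adjustment over 28649 probes at 0.05; limma was chosen here. Where a group never rose well above background, the fold is a bound: the bright mean against, per dim array, the larger of the probe's signal and the dimmest signal flagged well above background. Gene names are those of the array, on build mm9, and 71 member probes matched RefSeq accessions.

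Replicates are the labels' biological replicates. Members, lists of related genes, markers and alternatives were chosen with earlier results of these data known. Every member may be named; arrays' values are given for called genes and a fixed list of central ones, and related genes by the 3 largest called changes in each direction. Further genes, such as Glrx, Pgd, G6pdx and Slc7a11, were named after their values were seen. The fit was tested on simulated data. Figures used matplotlib 3.10.9.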

Additional observations from a re-analysis of the deposited data

Results flagged for a closer look

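A single array stood apart from the other 3 of its group, by Dixon's test, in 14 of 143 groups of 4 values tested. Chance alone flags about 1 in 20 groups. Control 3 was the array in 6 of them. It read 7.55 for Cat, 7.97 for Mgst3, 9.53 for Prdx3, 10.75 for Gsr and 11.30 for Nqo1, each the lowest control, and 11.86 for Txnrd2, the highest control. Silenced 4, the dimmest array, was the lowest of its group in 7: 10.30 for Gclc, 12.69 for Gstm3, 8.59 for Gstt3, 11.90 for Hmox1, 14.82 for Txn1, 7.36 for a second probe of Gstz1 and 6.90 for a second probe of Txn2. Control 4 read 8.77 for Gstm7, the highest control, where the other controls were 4.59 to 5.23. Among these genes the calls of Gsr, Gstm3, Mgst3 and Nqo1 changed when control 3 was left out.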

How the results depend on the processing

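Of the 51 genes, 10 were called higher and 6 lower. The count of higher genes became 28 with the shift to the 75th percentile and 20 each with cyclic loess, the series table and no mask of dim spots; the count of lower genes became 3 with the methods' t-test and with a block for slide row. Leaving out each array gave 8 to 16 higher and 4 to 7 lower genes, the 16 without silenced 4, and the Pvt1 call held throughout. Beside these, 2.98% to 15.3% of all genes were higher and 7.45% to 14.8% lower, the 15.3% also without silenced 4. With the replicate number as a block there were 9 higher and 4 lower, beside 4.46% and 9.93% of all genes. The numbers were not taken as pairs: same-numbered arrays had correlations of -0.02, 0.15, 0.20 and 0.06 of their deviations. Arrays numbered 1 and 4 did not correlate best with their own number. A second probe of Prdx1, not called at -0.08, was called higher at 0.47 with the shift to the 75th percentile. No other probe of the list changed sign past the threshold. The cause of these differences was not tested. The number of arrays and dim signal limit the changes that can be detected.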
